A study of Homo sapiens with 8 samples.

Results

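Glycolysis splits glucose into pyruvate in the cytosol, and lactate dehydrogenase then turns pyruvate into lactate. Hypoxia-inducible factors (HIF) are transcription factors whose alpha subunits are degraded while oxygen is present, because prolyl hydroxylases mark them for the ubiquitin ligase subunit VHL. When oxygen is short the alpha subunits persist, and they raise most genes of glycolysis together with genes for vessel growth, pH control, mitophagy and collagen modification. Colorectal cancer cells also run glycolysis in the presence of oxygen. The genes described here are 41 chosen by symbol as enzymes and transporters of glycolysis, HIF subunits and their hydroxylases, and other hypoxia-inducible genes, of 35394 genes in the count table. Of the 41, 40 had a row under their symbol. KDM3A-AS1 had none and was not analysed here. Of the 40, 39 passed the filter on low counts and were tested among 15006 genes in all, and CA9 did not pass.

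HCT116 is an established human colorectal cancer cell line of epithelial type, labelled as carrying a ras mutation. All 8 samples are of this line: 4 were treated with Pien Tze Huang (PZH), a compound remedy of Chinese medicine, and 4 received DMSO, the solvent, as control. The design text gives 24 h for the PZH treatment, no dose is stated in the labels, and no label says that the cells were kept at low oxygen. Poly(A) RNA was sequenced, with 18144117 to 19917571 counts per library, and levels are CPM, read counts set to a common library depth, after scaling by the trimmed mean of M values (TMM). Nothing says whether replicates were separate cultures, so p-values measure the spread between these samples, which may be technical. Of 12 epithelial markers, 8 stood at 1 CPM or more, among them EPCAM (277 ± 10.1 CPM in DMSO), while the intestinal markers KRT20, CDH17, LGALS4 and VIL1, named after their values were seen, were below it in at least 1 group. The 12 summed to 4113 to 4188 CPM without TMM scaling in DMSO and 2909 to 3248 in PZH. KRT8 was the most abundant of the 12 and weighs most in that sum, at 0.205% of all counts in DMSO and 0.0897% in PZH. Of the 9 markers tested, 4 were called higher, among them CDH1 (3.12-fold) and CLDN7 (3.97-fold). Called lower were 3: KRT8, from 1877 ± 18.2 to 983 ± 85.5 CPM, KRT20, from 1.34 ± 0.198 to 0.0302 ± 0.0605 CPM, and CLDN3 (1.36-fold). KRT20 had at most 2 counts in any PZH library. It passed the filter on low counts only through DMSO, so its direction was fixed in advance. Of all genes tested 39.3% were called higher and 40.9% lower. With no scaling 3 of the 9 markers were higher and 6 lower, where 4476 of all 15006 genes tested were higher and 7670 lower. Markers of endothelial, immune and erythroid cells all had group means under 1 CPM. Of 8 fibroblast markers COL1A1 alone had a mean that reached it, COL1A2 was at 0 in every library, and the 8 summed to 11.7 to 14.3 CPM in DMSO and 17.5 to 21.4 in PZH. The part of these shifts in the results below was not tested. In bulk RNA, fewer cells of a type and less RNA per cell cannot be told apart.

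Against the DMSO controls, PZH-treated cells held less mRNA of nearly every glycolytic enzyme, while the other hypoxia-inducible genes went both ways. Of the 17 glycolytic enzymes tested, 15 fell and 2, the hexokinases HK1 and HK2, rose. Of 9 other hypoxia-inducible genes tested, 4 rose and 5 fell, and the 3 with the largest rises were NDRG1, VEGFA and P4HA2. Calls are from edgeR's quasi-likelihood test, adjusted by Benjamini and Hochberg's method. Of all genes tested 39.3% were called higher and 40.9% lower, 80.3% in all, so these counts are read against that background: 15 of 17 lower for the enzymes, 5 of 9 for the others. At least 2-fold falls made up 18.9% of all genes tested and 10 of the 17 enzymes, and at least 2-fold rises made up 15.8% of all genes tested and 3 of the 9 other hypoxia-inducible genes. The median log2 fold change was -1.24 for the enzymes, -0.15 for the other hypoxia-inducible genes and -0.02 for all genes tested. Over all 39 tested genes of the set, 11 rose, 27 fell and SLC16A1 did not pass. Groups did not overlap for 33 of the 39, where 75.0% of all genes tested did not overlap (36.6% higher, 38.4% lower).

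Directions near 0 depend on the scaling between libraries, whose TMM factors were 1.09 to 1.10 in DMSO and 0.896 to 0.949 in PZH. With no scaling the median log2 fold change over all genes moved by -0.26, and the calls went from 5901 higher and 6143 lower to 4476 higher and 7670 lower. Of the 17 enzymes, 15 were then lower and 1, HK2, higher, and of the other hypoxia-inducible genes 3 were higher and 5 lower. With each library's trend over GC content removed, a comparison chosen after seeing the data, the enzymes were 14 lower and 3 higher. The other hypoxia-inducible genes were then 3 higher and 4 lower. Of all 14867 genes tested in that setting, 6119 were higher and 5824 lower.

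**Figure D1:**
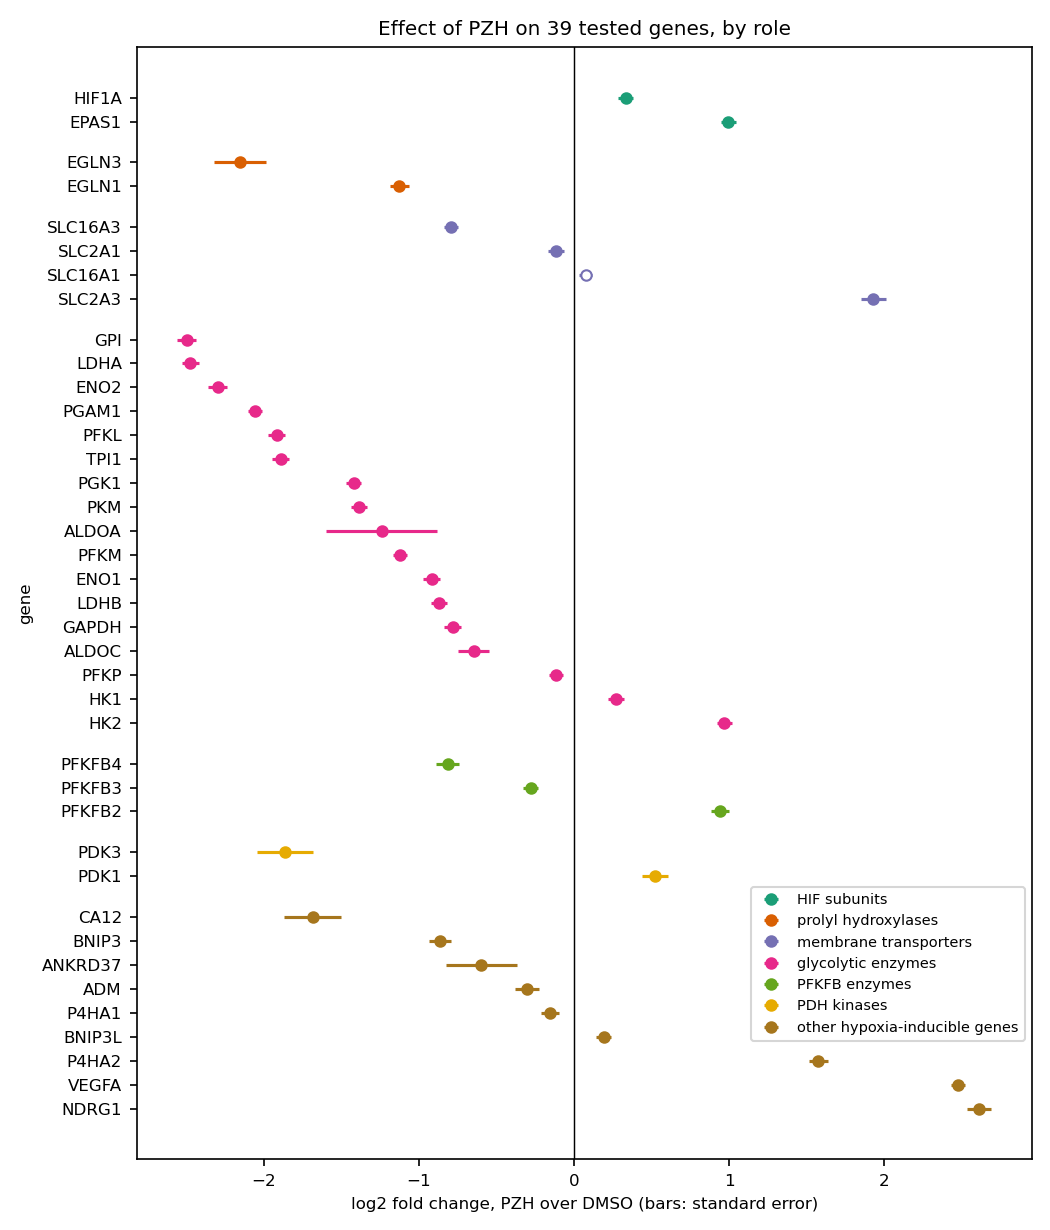
Log2 fold change (horizontal axis, PZH over DMSO, bars are standard errors) of the 39 tested genes, one per line and coloured by role; the open circle is SLC16A1, which did not pass the test. The 17 glycolytic enzymes run from -2.50 (GPI) to 0.97 (HK2), and the other hypoxia-inducible genes from -1.68 (CA12) to 2.61 (NDRG1).

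Promoter sequence was read from RefSeq (GRCh38.p14) for 34 of the 41 genes, 250 bases before each annotated start. HIF binds a core of ACGTG or GCGTG, which was searched on both strands; CACGTG holds ACGTG on both strands and is also the site of MYC and related factors. Of 61 windows of these genes, 36 (59.0%) held at least 1 such core, where 43.2% of all 35114 promoter windows of the same length did, and 37.7% and 18.5% held ACGTG. Several windows of one gene can share bases, and a match is a description of letters, not a bound site. NDRG1, VEGFA and SLC2A3 were among the genes for which no sequence was read. Of the genes with no core in any window, P4HA2 rose 2.98-fold. The others were called lower: EGLN3 by 4.45-fold, PGAM1 by 4.16-fold, PKM by 2.61-fold, LDHB by 1.83-fold and SLC2A1 by 1.08-fold. GAPDH, with cores, fell 1.72-fold. The sequences below are shown because genes with cores moved both ways and so did genes without: LDHA, PGK1 and GAPDH fell, HK2 rose, and LDHB, with no core in its window, fell less than LDHA. Each is the longest stretch of the window outside annotated exons, 5′ to 3′ on the gene's strand, with cores in capitals, those of the other strand reading CACGT or CACGC (the full LDHA window holds 5 cores, most of them in the exonic part not shown): LDHA at chr11:18394313-18394387, plus strand, PGK1 at chrX:78103998-78104173, plus strand, GAPDH at chr12:6535014-6535263, plus strand, HK2 at chr2:74834920-74835169, plus strand and LDHB at chr12:21657843-21658092, minus strand.
LDHA: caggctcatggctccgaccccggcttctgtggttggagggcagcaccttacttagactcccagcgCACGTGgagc
PGK1: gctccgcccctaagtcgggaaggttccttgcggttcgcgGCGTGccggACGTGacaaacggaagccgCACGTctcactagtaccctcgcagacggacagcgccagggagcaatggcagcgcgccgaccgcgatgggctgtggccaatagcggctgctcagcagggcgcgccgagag
GAPDH: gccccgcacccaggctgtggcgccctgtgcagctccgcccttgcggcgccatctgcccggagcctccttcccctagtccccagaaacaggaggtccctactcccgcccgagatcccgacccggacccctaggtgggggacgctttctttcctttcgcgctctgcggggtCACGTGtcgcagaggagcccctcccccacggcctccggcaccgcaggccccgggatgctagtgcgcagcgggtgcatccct
HK2: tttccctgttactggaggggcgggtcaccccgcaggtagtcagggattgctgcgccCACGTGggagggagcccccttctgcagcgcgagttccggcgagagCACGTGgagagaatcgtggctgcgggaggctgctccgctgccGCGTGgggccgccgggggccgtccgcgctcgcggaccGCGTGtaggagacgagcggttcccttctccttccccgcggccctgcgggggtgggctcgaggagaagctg
LDHB: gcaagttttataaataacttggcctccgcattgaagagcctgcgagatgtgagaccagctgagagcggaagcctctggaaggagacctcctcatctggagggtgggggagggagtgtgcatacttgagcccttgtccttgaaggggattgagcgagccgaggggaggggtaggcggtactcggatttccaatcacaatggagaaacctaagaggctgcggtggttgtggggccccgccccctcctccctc

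EGLN1 and EGLN3, of the HIF prolyl hydroxylases, fell, and mRNA of the alpha subunits was higher, that of HIF1A only with scaling between libraries. EGLN1, which encodes the main oxygen-sensing hydroxylase PHD2, stood at 80.5, 80.2, 72.7 and 80.0 CPM in the DMSO libraries and at 37.4, 32.4, 38.8 and 35 CPM in the PZH libraries. The groups were well apart, with DMSO replicate 3 the lowest control, and EGLN1 fell 2.18-fold (log2 fold change -1.12 ± 0.0595, edgeR adjusted p = 4.77e-14). EGLN3, which encodes the hydroxylase PHD3 and is itself a HIF target, was at 10.5, 9.83, 9.76 and 8.73 CPM in DMSO and 3.05, 1.65, 1.63 and 2.36 CPM in PZH. It fell 4.45-fold from a low level, with no overlap (edgeR adjusted p = 6.99e-11). EPAS1, the gene of HIF-2 alpha, was at 59.9, 59.2, 62.6 and 58.0 CPM in DMSO and 111, 125, 118 and 125 CPM in PZH, close to 2-fold higher with no overlap (edgeR adjusted p = 1.59e-14). HIF1A, the gene of HIF-1 alpha, moved less, from 172, 178, 179.9 and 174 CPM to 213, 224, 210.4 and 242 CPM. All 4 treated libraries lay above all controls and HIF1A rose 1.26-fold (edgeR adjusted p = 1.23e-06), but with no scaling it did not pass (0.08 on the log2 scale, adjusted p = 0.115). HIF-1 alpha is controlled mainly through protein stability, which these data do not measure.

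Within each library the count of EPAS1 over HIF1A, which does not depend on scaling between libraries, had log2 ratios of -1.52, -1.58, -1.52 and -1.59 in DMSO and -0.94, -0.84, -0.84 and -0.95 in PZH. The difference of 0.66 had an exact two-sided permutation p of 0.0286, the smallest that 70 assignments of 4 and 4 libraries allow (adjusted p = 0.0306 over 15 pairs of related genes tested). EGLN3 over EGLN1 likewise moved by -1.06, with the same p. EGLN2, the gene of the hydroxylase PHD1 and outside the set, went from 2.73 ± 0.346 to 3.51 ± 0.508 CPM; it did not pass (log2 fold change 0.36 ± 0.184, edgeR adjusted p = 0.0766) and was called higher with the GC trend removed (0.68, adjusted p = 0.00220). Of 15 further genes that regulate the HIF pathway, EGLN2 among them, 14 were tested. Of these, 7 rose and 5 fell, where 39.3% and 40.9% of all genes tested did. The partner subunit ARNT rose 1.63-fold, the ubiquitin ligase SIAH2 rose 2.24-fold and the coactivator CREBBP rose 1.44-fold. CITED2, which competes with HIF for coactivators, fell 2.36-fold. Parts of the VHL ligase went both ways: RBX1, ELOB and CUL2 fell 1.52-fold, 1.5-fold and 1.10-fold, while VHL and ELOC rose 1.39-fold and 1.24-fold, ELOC not without scaling (adjusted p = 0.358). With no scaling 6 of the 14 were higher and 6 lower, where 4476 of all 15006 genes tested were higher and 7670 lower.

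At glucose entry and its first phosphorylation, 3 of the 4 genes rose (HK1 not without scaling), and the other, SLC2A1, changed little. SLC2A1 encodes GLUT1, the common glucose transporter of tumour cells, and SLC2A3 encodes GLUT3, which binds glucose tightly. SLC2A3 was at 11.9, 12.7, 10.7 and 10.7 CPM in DMSO and 41, 46.8, 40.1 and 47.7 CPM in PZH. Every treated library was far above every control, a rise of 3.81-fold (log2 fold change 1.93 ± 0.0808, edgeR adjusted p = 6.41e-16). SLC2A1 was at 203, 205, 189 and 198 CPM in DMSO and 168, 188, 179.9 and 199 CPM in PZH, and the groups overlapped. It was called lower by 1.08-fold (edgeR adjusted p = 0.0459), a call that RLE scaling ended (adjusted p = 0.140), as did DESeq2 (0.156), and leaving out DMSO replicate 1 (0.0901), DMSO replicate 2 (0.111), DMSO replicate 4 (0.0664), PZH replicate 1 (0.333) or PZH replicate 3 (0.127), and with the GC trend removed its sign turned (log2 fold change 0.10, adjusted p = 0.117). Per kilobase of exon, SLC2A1 stayed the more abundant of the pair: SLC2A3 made up 5.56 ± 0.303% of their summed level in DMSO and 19.6 ± 0.743% in PZH (mean ± SD, n = 4 per group).

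HK2, the inducible hexokinase, whose printed promoter stretch carries several cores, was at 87.5, 87.9, 83.9 and 90.0 CPM in DMSO and 164, 175, 162 and 184 CPM in PZH. No treated library came near the controls, and HK2 rose 1.96-fold (edgeR adjusted p = 1.79e-14). HK1, the constitutive form, was at 125, 123, 122 and 120.3 CPM in DMSO and 131, 154, 148 and 160.1 CPM in PZH, with PZH replicate 1 closest to the controls. It rose 1.21-fold (edgeR adjusted p = 7.95e-05) but not with no scaling (0.01 on the log2 scale, adjusted p = 0.864). The log2 ratio of HK2 over HK1 went from -0.52, -0.49, -0.54 and -0.42 in the DMSO libraries to 0.33, 0.18, 0.13 and 0.20 in the PZH libraries (exact two-sided permutation p = 0.0286, adjusted p = 0.0306). A further hexokinase gene outside the set, HKDC1, went from 0.680 ± 0.216 CPM to 35.4 ± 2.16 CPM, a rise of 51.8-fold (edgeR adjusted p = 3.06e-20).

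**Figure D2:**
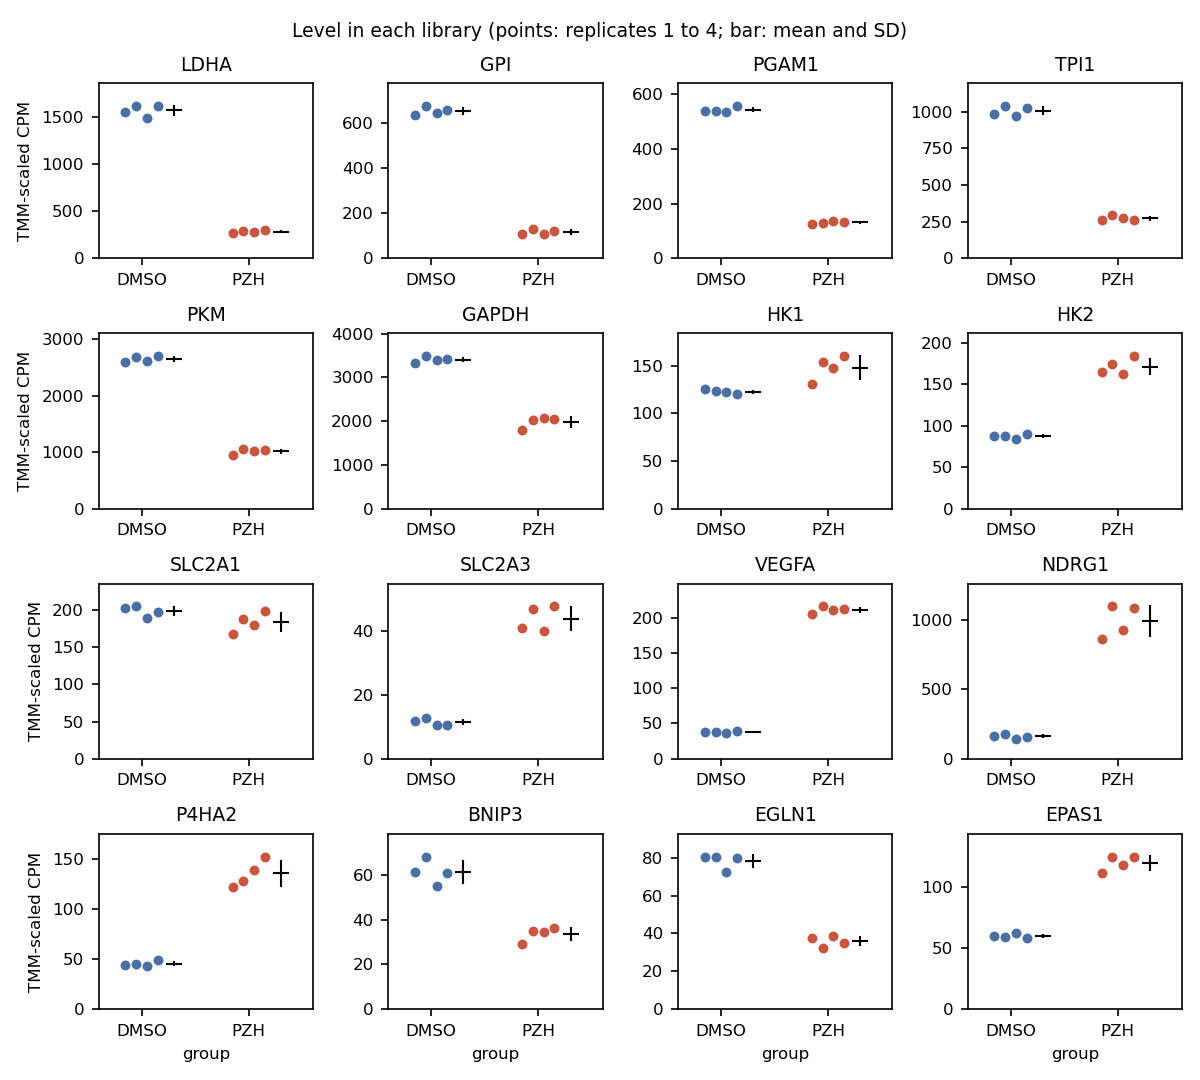
Level in every library of 16 genes of the set (vertical axes, TMM-scaled CPM from 0, scales differ between panels); points are replicates 1 to 4 of DMSO (blue) and PZH (red), and the black bar is the mean with SD. In 15 of the panels the groups are apart, and in that of SLC2A1 they overlap.

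From the isomerase onward every tested enzyme gene of the pathway was called lower, PFKP by least. GPI, glucose-6-phosphate isomerase, was at 637, 676, 646 and 659.8 CPM in DMSO and 108, 131, 106 and 120.1 CPM in PZH. It fell 5.64-fold with no overlap (log2 fold change -2.50 ± 0.0610, edgeR adjusted p = 4.20e-20). In GENCODE 29, 349 of the 4474 exonic bases of GPI are shared with a protein-coding gene of the same strand that has no row here. The part of such reads in the GPI value was not tested. The 3 phosphofructokinase genes, whose enzyme commits sugar to glycolysis, fell unequally. PFKL, the liver type, was at 124, 122, 127 and 123 CPM in DMSO and 32.2, 30.2, 33.1 and 36.1 CPM in PZH, a fall of 3.78-fold with no overlap (edgeR adjusted p = 4.37e-19). PFKM, the muscle type, fell 2.17-fold from 182 ± 4.42 to 83.8 ± 3.20 CPM (edgeR adjusted p = 3.40e-16). PFKP, the platelet type, was at 231, 247, 242 and 240.0 CPM in DMSO and 220.3, 223, 224 and 219 CPM in PZH. The PFKP groups were close together, and its fall of 1.08-fold (edgeR adjusted p = 0.0181) was lost with RLE scaling (0.0714) and without DMSO replicate 2 (0.0578) or PZH replicate 1 (0.0602), and with the GC trend removed it was called higher (log2 fold change 0.11, adjusted p = 0.0291). Per kilobase, PFKP made up 44.2 ± 0.83% of phosphofructokinase mRNA in DMSO and 67.2 ± 0.740% in PZH, and PFKL 29.2 ± 0.519% and 12.7 ± 0.923% (mean ± SD, n = 4 per group). The ratio of PFKL to PFKP within a library moved by -1.80 on the log2 scale and that of PFKM to PFKP by -1, each without overlap (exact permutation p = 0.0286, adjusted p = 0.0306).

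The PFKFB genes encode the enzymes that make and degrade fructose-2,6-bisphosphate, the strongest activator of phosphofructokinase. PFKFB2 was at 23.7, 23.4, 24.8 and 24.6 CPM in DMSO and 45.6, 49.0, 44.5 and 46.6 CPM in PZH, a rise of 1.92-fold with no overlap (edgeR adjusted p = 1.22e-12). PFKFB4 went the other way, from 37.1, 41, 33.2 and 33.7 CPM to 20.8, 20.3, 19.6 and 21.8 CPM, and fell 1.76-fold (edgeR adjusted p = 1.09e-09). PFKFB3, whose enzyme favours synthesis of the activator, fell 1.21-fold from 62.9 ± 1.02 to 51.9 ± 1.98 CPM (edgeR adjusted p = 2.58e-05), a call lost with the GC trend removed (adjusted p = 0.305). Per kilobase, PFKFB2 went from 10.9 ± 0.771% to 24.9 ± 0.954% of the summed level of the 3 genes, PFKFB3 was at 47.6 ± 1.41% and 46.8 ± 1.3%, and PFKFB4 went from 41.5 ± 2.17% to 28.3 ± 0.922%.

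Aldolase splits fructose-1,6-bisphosphate. ALDOC fell 1.56-fold, from 57.4, 70.6, 52.3 and 61.1 CPM in DMSO to 31.1, 47.7, 34.1 and 41.4 CPM in PZH (edgeR adjusted p = 3.70e-06), and it had the widest relative spread of the enzymes with more than 10 CPM. ALDOA was listed at 15 to 37 counts per DMSO library and 6 to 14 per PZH library, or 1.3 ± 0.468 and 0.546 ± 0.201 CPM. In the GENCODE 29 annotation 1636 of its 2407 exonic bases are shared with another protein-coding gene of the same strand that has no row here, and the labels do not say how such reads were counted. The ALDOA value is therefore uncertain, including its call as lower (2.36-fold, edgeR adjusted p = 0.00328), and without ALDOA 14 of 16 enzymes were lower. The ratio of ALDOC to ALDOA overlapped between groups (difference 0.53, exact two-sided permutation p = 0.229, also after adjustment), with DMSO log2 ratios of 5.63, 6.59, 4.91 and 5.21 and PZH log2 ratios of 6.02, 5.80, 6.45 and 6.17.

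The lower, energy-yielding part of the pathway fell in full. TPI1, triosephosphate isomerase, was at 985, 1039, 973 and 1027 CPM in DMSO and 257, 298, 271 and 260.0 CPM in PZH, a fall of 3.70-fold with no overlap (edgeR adjusted p = 6.99e-19). GAPDH, which makes the first high-energy intermediate and often serves as a reference gene in other assays, was at 3338, 3485, 3388 and 3417 CPM in DMSO and 1789, 2027, 2061 and 2049 CPM in PZH. PZH replicate 1 was the lowest library, and GAPDH fell 1.72-fold (log2 fold change -0.78 ± 0.0558, edgeR adjusted p = 1.17e-11). PGK1, phosphoglycerate kinase and the first ATP-producing enzyme, fell 2.68-fold from 673 ± 27.2 to 251 ± 7.37 CPM (edgeR adjusted p = 1.62e-17). PGAM1, phosphoglycerate mutase, was at 540.1, 540.2, 537 and 558 CPM in DMSO and 127, 128, 137 and 131 CPM in PZH, and its groups had little internal spread. PGAM1 fell 4.16-fold (edgeR adjusted p = 1.33e-20). PKM, pyruvate kinase, fell 2.61-fold from 2648 ± 52.2 to 1015 ± 47.7 CPM (edgeR adjusted p = 1.11e-16).

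Enolase has an abundant and a scarce form here. ENO1 was at 2915, 3046, 2877 and 3019 CPM in DMSO and 1421, 1579, 1632 and 1643 CPM in PZH, a fall of 1.89-fold (edgeR adjusted p = 6.68e-13). ENO2, the form typical of neurons and a HIF target, was at 85.6, 92.4, 81.4 and 87.9 CPM in DMSO and 18.8, 18.0, 17.3 and 16.6 CPM in PZH, and fell 4.91-fold (edgeR adjusted p = 1.86e-19). ENO2 thus lost more than ENO1 in every treated library: its log2 ratio to ENO1 was -5.09, -5.04, -5.14 and -5.10 in DMSO and -6.24, -6.45, -6.56 and -6.62 in PZH (exact two-sided permutation p = 0.0286, adjusted p = 0.0306). Per kilobase, ENO1 was 97.8 ± 0.0615% of enolase mRNA in DMSO and 99.1 ± 0.102% in PZH.

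Lactate dehydrogenase shifted in balance between its 2 abundant forms. LDHA, the form that favours lactate production and is a HIF target with a CACGTG in the stretch printed above, was at 1553, 1615, 1492 and 1612 CPM in DMSO and 265, 286, 275 and 303 CPM in PZH. LDHB, the form that favours pyruvate and has no such core in its window, was at 1272, 1319.7, 1256 and 1304 CPM in DMSO and 662, 769.9, 685 and 699.9 CPM in PZH. Neither gene's groups overlapped, and LDHA fell 5.56-fold (log2 fold change -2.47 ± 0.0554, edgeR adjusted p = 9.60e-21) against 1.83-fold for LDHB (-0.87 ± 0.0532, edgeR adjusted p = 6.76e-13). The log2 ratio of LDHA over LDHB was 0.29, 0.29, 0.25 and 0.31 in the controls and -1.32, -1.43, -1.32 and -1.21 in the treated libraries, a difference of -1.60 (exact two-sided permutation p = 0.0286, adjusted p = 0.0306). Per kilobase, LDHA went from 39.4 ± 0.406% to 17.7 ± 0.901% of lactate dehydrogenase mRNA (mean ± SD, n = 4 per group). In GENCODE 29, 891 of the 1586 exonic bases of LDHB are shared with a gene of the same strand that has no row here, so its level is less certain than that of LDHA.

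**Figure D3:**
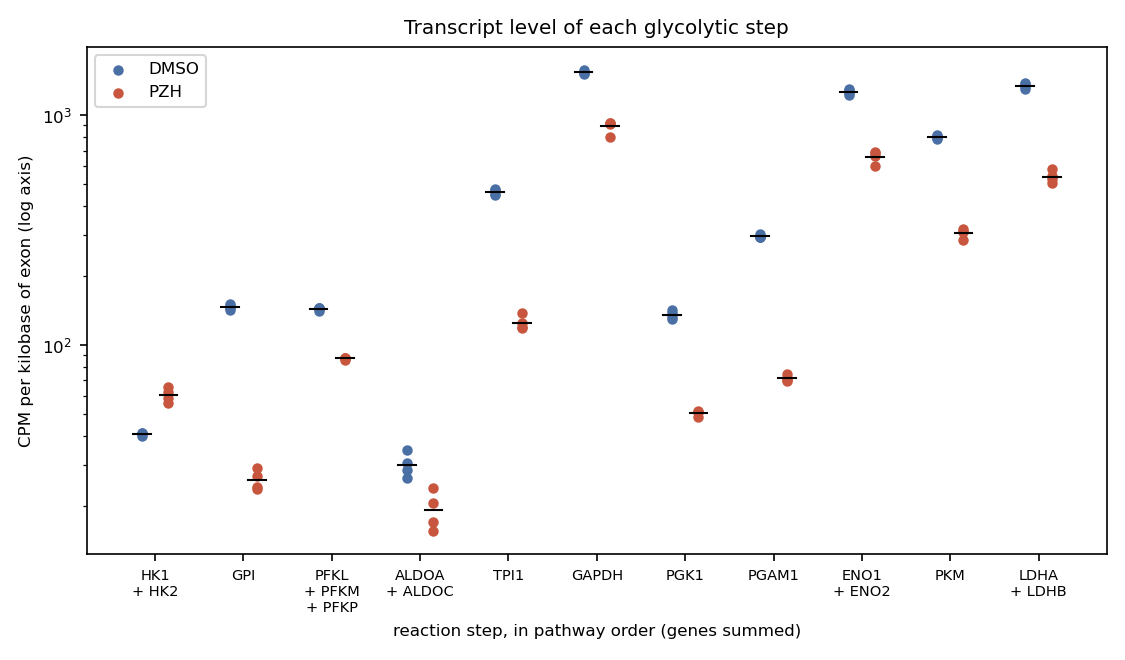
Level of each step of glycolysis in each library (vertical axis, CPM per kilobase of exon, log scale, genes of a step summed), in pathway order from left to right, with DMSO in blue, PZH in red and means as black lines. The hexokinase step (HK1 and HK2) lies higher in PZH and the other 10 steps lie lower.

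Read by reaction step, the set's genes of a step were summed per kilobase of exon. The hexokinase step, HK1 and HK2, went from 41 ± 0.535 to 60.6 ± 4.18 CPM per kilobase. HKDC1, outside the set and not in that sum, went from 0.184 ± 0.0586 to 9.61 ± 0.585 CPM per kilobase. The other 10 steps were lower in PZH. The glucose-6-phosphate isomerase step went from 146 ± 3.84 to 25.9 ± 2.63, a ratio of 5.64, and the aldolase step, whose level is uncertain through ALDOA, from 30.1 ± 3.63 to 19.2 ± 3.73, a ratio of 1.57. In DMSO the hexokinase step was below the isomerase step in every library, and in PZH above it in every library. GAPDH had the highest level of all genes of the set in both groups, at 1532 ± 27.6 and 891 ± 58.0 CPM per kilobase, followed by ENO1, LDHB and PKM in that order; LDHB at 812 ± 18.4 and PKM at 799 ± 15.8 did not differ beyond their spread in DMSO. NDRG1 moved from rank 13 to rank 5 of the 40 genes, and GPI from rank 8 to rank 20. As a share of all counts, the 17 enzymes took 1.71 ± 0.0330% in DMSO and 0.643 ± 0.0175% in PZH. Without the 3 most abundant, GAPDH, ENO1 and PKM, the other 14 took 0.726 ± 0.0173% and 0.226 ± 0.00591%.

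Lactate leaves and enters cells through monocarboxylate transporters. SLC16A3 encodes MCT4, the HIF-inducible exporter, and was at 251, 263, 256 and 261 CPM in DMSO and 146, 157, 142 and 151 CPM in PZH, a fall of 1.73-fold with no overlap (edgeR adjusted p = 1.89e-13). SLC16A1 encodes MCT1 and was at 177, 174, 182 and 178 CPM in DMSO and 194, 191, 176 and 187 CPM in PZH. The SLC16A1 groups overlapped and it did not pass (log2 fold change 0.08 ± 0.0443, edgeR adjusted p = 0.122), while it was called lower with no scaling (-0.18, adjusted p = 8.85e-04) and higher with DESeq2 (0.10, 0.0371) and without PZH replicate 3 (0.11, 0.0305). The within-library ratio of SLC16A3 to SLC16A1 moved by -0.87 on the log2 scale (exact permutation p = 0.0286, adjusted p = 0.0306). With the GC trend removed SLC16A3 fell by less (log2 fold change -0.36, edgeR adjusted p = 6.49e-07). SLC16A1 did not pass in that setting (0.0038, edgeR adjusted p = 0.944), and the ratio was not computed there. SLC16A3 shares 336 of 5173 exonic bases with CSNK1D on the opposite strand, whose level rose from 131 ± 3.25 to 212 ± 3.98 CPM. Use of strand in the counting is not given, and the part of those reads in the SLC16A3 value was not tested.

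Pyruvate dehydrogenase kinases inactivate pyruvate dehydrogenase, the mitochondrial complex that turns pyruvate into acetyl-CoA. PDK1, a HIF target, was at 17.6, 17.4, 18.4 and 16.5 CPM in DMSO and 23.0, 28.4, 22.6 and 26.6 CPM in PZH, a rise of 1.44-fold with no overlap (edgeR adjusted p = 5.12e-06). PDK3 was at 7.52, 10.1, 9.81 and 8.30 CPM in DMSO and 2.26, 1.71, 2.17 and 3.69 CPM in PZH, and fell 3.64-fold (edgeR adjusted p = 3.30e-09). The ratio of PDK3 to PDK1 had the largest move of the 15 pairs, -2.42 on the log2 scale, with treated libraries between -4.03 and -2.84. Of 10 further genes of the pyruvate dehydrogenase complex and its regulators, 3 rose and 6 fell, where 39.3% and 40.9% of all genes tested did. With no scaling 3 of the 10 rose and 7 fell, where 4476 of all 15006 genes tested were higher and 7670 lower. The kinase PDK2 fell 4.28-fold, the subunit DLAT fell 2.25-fold and the phosphatase PDP1 fell 2.22-fold, while the phosphatase PDP2, the subunit PDHX and the kinase PDK4 rose 1.52-fold, 1.33-fold and 1.70-fold.

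Among the other hypoxia-inducible genes, 3 rose by more than 2-fold. NDRG1, a stress and differentiation responsive gene, was at 167, 181, 143 and 158 CPM in DMSO and 864, 1097, 928 and 1087 CPM in PZH. Treated libraries spread more widely than controls but all lay far above them, and NDRG1 rose 6.12-fold (log2 fold change 2.61 ± 0.0777, edgeR adjusted p = 1.30e-18). VEGFA, the vessel growth factor, was at 38.2, 38.1, 36.1 and 39 CPM in DMSO and 205, 216, 211 and 212 CPM in PZH, with little spread in either group. Its rise was 5.57-fold (edgeR adjusted p = 6.83e-22). P4HA2, a subunit of collagen prolyl hydroxylase, was at 44.3, 45.2, 43.4 and 48.9 CPM in DMSO and 123, 128, 139 and 152 CPM in PZH, a rise of 2.98-fold with no overlap (edgeR adjusted p = 1.91e-16).

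P4HA1, the sister subunit, was at 65.7, 68.9, 59.3 and 63.1 CPM in DMSO and 55.1, 58.2, 55.3 and 62.9 CPM in PZH, with overlapping groups. It was called lower by 1.11-fold (edgeR adjusted p = 0.0201), a call lost with RLE scaling (0.0563), in DESeq2 (0.0792) and without DMSO replicate 2 (0.0829), PZH replicate 1 (0.108) or PZH replicate 3 (0.0783). The balance of the pair turned over: P4HA2 was 35.8 ± 1.75% of their summed level per kilobase in DMSO and 64.8 ± 1.49% in PZH, and their log2 ratio moved by 1.72 (exact two-sided permutation p = 0.0286, adjusted p = 0.0306). The mitophagy receptors BNIP3 and BNIP3L parted as well. BNIP3 was at 61.3, 68.2, 55.2 and 60.9 CPM in DMSO and 29.3, 35, 34.4 and 36.4 CPM in PZH, a fall of 1.82-fold with no overlap (edgeR adjusted p = 1.37e-10). BNIP3L was at 94.5, 94.6, 89.3 and 93.4 CPM in DMSO and 107, 106, 98.4 and 114 CPM in PZH and rose 1.14-fold (edgeR adjusted p = 0.00108), a call lost with the GC trend removed (adjusted p = 0.0883) and with no scaling, where the sign turned (-0.07 on the log2 scale, adjusted p = 0.209). The ratio of BNIP3L to BNIP3 within a library moved by 1.05 on the log2 scale, with the same exact p as the P4HA pair.

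The remaining genes of that group were lower. CA12 and CA9 encode carbonic anhydrases of the cell surface that regulate pH. CA12 was at 4.97, 5.77, 5.44 and 5.35 CPM in DMSO and 1.36, 1.42, 2.17 and 1.75 CPM in PZH, a fall of 3.21-fold (edgeR adjusted p = 1.83e-08). CA9, a widely used marker of HIF-1 activity, had 48 counts over the 4 DMSO libraries and 1 count, in PZH replicate 2, over the 4 PZH libraries. That is a ratio of 38.0 per unit depth, DMSO over PZH, with a 95% exact binomial interval of 6.50 to 1532, which covers counting error only. It was nearly silent in the controls too, at 0.560 ± 0.185 CPM. ADM, the vasodilator peptide adrenomedullin, was at 33.0, 38.2, 30.9 and 33.6 CPM in DMSO and 25.6, 25.1, 31.3 and 28.3 CPM in PZH, where PZH replicate 3 reached into the control range. ADM was called lower by 1.23-fold (edgeR adjusted p = 0.00133), but not with the GC trend removed (adjusted p = 0.354). ANKRD37 was at 2.74, 3.31, 2.70 and 1.91 CPM in DMSO and 1.3, 2.01, 1.75 and 2 CPM in PZH, and its call as lower (edgeR adjusted p = 0.0202) was lost without DMSO replicate 2 (0.0838) or PZH replicate 1 (0.0824).

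**Figure D4:**
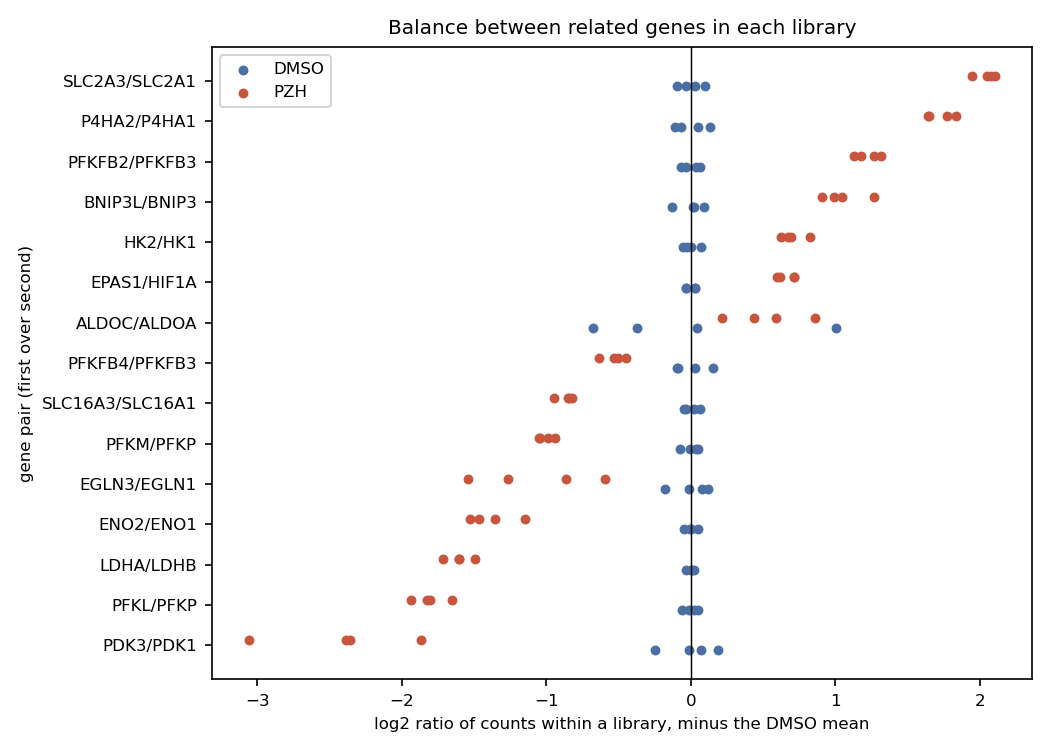
Log2 ratio of the counts of 2 related genes within each library (horizontal axis, shifted so that the DMSO mean of each pair is 0), one pair per line, DMSO in blue and PZH in red. The groups do not overlap in 14 of the 15 pairs tested, and ALDOC over ALDOA is the exception. Taken singly, 75.0% of all genes tested did not overlap.

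Over the 16 pairs of related genes listed, 15 were tested and 14 differed between groups by the exact permutation test at adjusted p = 0.0306. CA12 over CA9 was not tested because CA9 had a single count in PZH. Ratios of unrelated genes were not examined. Taken singly, 75.0% of all genes tested did not overlap between groups, so the count of 14 is not read as particular to related genes. Since the ratios of the pairs are taken within a library, they bear on the balance of related genes whatever the scaling. A library's trend over GC content is not removed from them. The differences ran from -2.42 (PDK3 over PDK1) to 2.04 (SLC2A3 over SLC2A1). On leaving out any 1 library no difference of those 14 pairs changed sign, which their lack of overlap fixed in advance.

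A list of 40 further hypoxia-inducible genes was also divided. Of 36 tested, 17 rose and 18 fell, where 39.3% of all genes tested were called higher and 40.9% lower. Without scaling 13 rose and 18 fell, where 4476 of all 15006 genes tested were higher and 7670 lower. At least 2-fold rises with TMM scaling were 8 of the 36 and falls 12, against 15.8% and 18.9% of all genes tested. Of these falls, IGFBP3, CXCR4, PPFIA4 and DEPP1 had at most 15 counts in any PZH library. These genes passed the filter on low counts only through DMSO, so a call as lower was favoured in advance. Groups did not overlap for all 36, against 75.0% of all genes tested. The median log2 fold change of the 36 was 0.02. The mTOR inhibitor DDIT4 (REDD1) rose 14.4-fold from 47.7 ± 3.47 to 685 ± 80.0 CPM and the secreted hormone STC2 rose 4.48-fold. Glycogen synthase GYS1 fell 4.35-fold from 92.7 ± 2.82 to 21.3 ± 2.15 CPM, the mitochondrial protein gene FAM162A fell 3.89-fold and the collagen lysyl hydroxylase PLOD2 fell 2.99-fold. Of 23 further genes of glycolysis, sugar phosphate and lactate metabolism, 13 were tested, of which 5 rose and 5 fell. Without scaling 4 of the 13 rose and 8 fell, beside the same 4476 higher and 7670 lower of all 15006 genes tested. Beside HKDC1, the mitochondrial pyruvate carrier MPC1 and phosphoglucomutase PGM1 rose 2.25-fold and 1.63-fold, and PGM2, the ADP-dependent glucokinase ADPGK and the muscle enolase ENO3 fell 1.45-fold, 1.34-fold and 1.95-fold. Of 7 gluconeogenesis genes 3 passed the filter on low counts: mitochondrial PCK2 rose 4.61-fold from 30.7 ± 3 to 141 ± 5.31 CPM, and the phosphatase G6PC3 and pyruvate carboxylase PC fell 1.67-fold and 1.35-fold, PC not with the GC trend removed (log2 fold change -0.20, adjusted p = 0.120).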

How the data were processed

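Per the labels' protocols, Trizol total RNA was enriched for poly(A) RNA and made into libraries with the NEBNext Ultra kit. Tools listed without roles in the submitters' processing notes are HISAT2 2.1.0, StringTie 1.3.3b, DESeq 1.28.0 and FastQC 0.11.5; those sources state no genome build, annotation or use of strand. The authors deposited whole-number read counts, with genes by symbol and each library in its own column. In 25 rows a spreadsheet date replaced the gene name (0.178% to 0.220% of counts); they were kept in library sizes and tests.

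Genes passing edgeR's filterByExpr (minimum count 10, minimum total 15) were scaled by TMM and compared with edgeR 4.0.16 (glmQLFit, glmQLFTest, group as the only term, two-sided, Benjamini-Hochberg over 15006 genes, threshold 0.05). Standard errors are the log2 fold change over the square root of F; levels are mean ± SD with n = 4 per group. Ratios of related genes are log2 of counts plus 0.5, tested by exact permutation over 70 assignments and adjusted over 15 pairs. Values per kilobase use the union of GENCODE 29 basic exons, which may differ from the authors' annotation. A floor of 3 counts is 0.151 to 0.165 CPM. No pair of replicates was within counting noise (chi-square over its degrees of freedom from 2.39 to 12.3), so all 8 were kept. Further tools were R 4.3.3, limma 3.58.1, DESeq2 1.42.0 and Python 3.11.15. Of the tests, edgeR's alone was run on simulated counts, with 200 changed genes and the same dispersion for every gene. It recovered 88% of 1.5-fold changes and 100% of 2-fold changes. That setting is unlike these data, where 80.3% of genes tested were called, so it does not check the calls given here.

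The genes and lists were chosen with earlier results of these data known. All 41 genes are named; of each of 5 further lists, up to 3 called genes per direction with the smallest p; markers at 1 CPM or more; and pseudogene rows of at least 100 counts. One gene that this rule names is not reported here. Overlapping genes, low markers, EGLN2, the further VHL ligase genes, IGFBP3, CXCR4, PPFIA4 and DEPP1 were named after their values were seen. Alternatives were scaling (RLE, upper quartile, none), filtering (none, or 1 CPM in 4 libraries), DESeq2, limma-voom, a block for replicate number, a threshold of 0.01, leaving out each library and, for ratios, a pseudocount of 1; removal of the GC trend was added after seeing the data.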

Additional observations from a re-analysis of the deposited data

Results flagged for a closer look

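In 80 groups of 4 libraries (40 genes, 2 groups each), 4 held a library whose gap to its nearest neighbour exceeded Dixon's 95% limit, as a share of the group's range, where chance gives about 1 in 20 groups such a library. EGLN1 in DMSO replicate 3 was at 72.7 CPM, below the other controls at 80.0 to 80.5 CPM (gap 0.934 of the range). GAPDH in PZH replicate 1 was at 1789 CPM, below the other treated libraries at 2027 to 2061 CPM (gap 0.873). PGAM1 in DMSO replicate 4 was at 558 CPM, above 537 to 540.2 CPM (gap 0.842). CA9 in PZH replicate 2 had its 1 count (0.0590 CPM) where the other treated libraries had 0 (gap 1).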

How the results depend on the processing

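Every count led with stayed within 1.5 times its value under all 18 alternatives: genes called 11126 to 13608, genes of the set higher 8 to 12 and lower 23 to 28, glycolytic enzymes lower 14 to 15, and other hypoxia-inducible genes higher 3 to 4. On leaving out 1 library the same counts were 11873 to 12187, 11 to 12, 23 to 27, 14 to 15 and 4. Of 39 tested genes, 29 kept direction and side of the threshold in every alternative in which they were tested. ALDOA, 1 of these 29, did not pass the filter of 1 CPM in 4 libraries and was not tested there. Signs turned for SLC2A1 (0.10) and PFKP (0.11) with the GC trend removed, and for SLC16A1 (-0.18) and BNIP3L (-0.0672) without scaling factors; the cause was not tested. At an adjusted p of 0.01, SLC2A1, PFKP, ANKRD37 and P4HA1 were not called. Replicate numbers are shared between groups but same-numbered libraries did not deviate together (correlations 7.36e-04 to 0.0113, none over 0.1). With the replicate number as a block, 12014 genes were called, 11 genes of the set were higher and 27 lower, and no call of the set changed. For ratios of related genes, leaving out a library gives values only, since no test was run on the remaining 7 libraries. The 4 same-numbered pairs are too few for an exact p under 0.05, so a replicate block was not run as a test. The mean of paired differences equals the unpaired difference. Depth limits CA9 and ALDOA most, with at most 14 counts in any treated library.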

Other observations

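Several enzymes of the set have processed pseudogenes, copies in the genome whose reads can be confused with those of the parent gene. The table holds 64 rows named after a gene of the set followed by P and a number, of which 6 had at least 100 counts in all. TPI1P1 went from 22.0 ± 0.842 to 6.78 ± 0.802 CPM (log2 fold change -1.70 ± 0.0973), and TPI1 had -1.89 ± 0.0543. GAPDHP1 went from 23.8 ± 0.870 to 13.5 ± 0.364 CPM (log2 fold change -0.82 ± 0.0768), and GAPDH had -0.78 ± 0.0558. LDHAP4 went from 5.36 ± 0.411 to 0.942 ± 0.209 CPM (log2 fold change -2.50 ± 0.204), and LDHA had -2.47 ± 0.0554. TPI1P2 went from 1.14 ± 0.424 to 0.356 ± 0.289 CPM (log2 fold change -1.66 ± 0.434) and GAPDHP65, which did not pass (edgeR adjusted p = 0.147), from 0.901 ± 0.365 to 0.606 ± 0.0948 CPM (log2 fold change -0.57 ± 0.357). BNIP3P11 rose, from 0.456 ± 0.111 to 1.74 ± 0.298 CPM (log2 fold change 1.92 ± 0.304), whereas BNIP3 fell (-0.86 ± 0.0706). Reads of parents and copies cannot be told apart here, and their part in these values was not tested.

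HK2 shares 7 exonic bases with AC019069.1, a non-coding RNA gene of the opposite strand, which went from 2.04 ± 0.464 to 0.176 ± 0.0806 CPM (log2 fold change -3.48 ± 0.380) while HK2 rose. PFKM shares 413 of 4776 exonic bases with SENP1 of the opposite strand, which went from 29.2 ± 1.04 to 33.4 ± 2.13 CPM (log2 fold change 0.19 ± 0.0644).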
